A study of Homo sapiens with 12 samples.

Results

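The distal end of the long arm of chromosome 7 (7q) was described gene by gene in 2 human lines that differ in the form of PGC-1α they express. Members were all genes that start between 141.7 and 159.4 Mb of chromosome 7 (GRCh38) and have a mean count of 100 or more over the 6 cytoplasmic libraries, with INSIG1 left out. This gave 89 of the 471 genes annotated in the stretch, and 89 of 61860 genes in the whole table. The stretch itself was chosen by the cytoplasmic difference between the lines, so the cytoplasmic values below are a description without a test. Of the members, 65 are protein-coding, 17 are long noncoding RNAs, 2 are Y RNAs and 5 are pseudogenes.

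PGC-1α is a transcriptional coactivator of energy metabolism, and its RS domain, rich in serine and arginine, binds RNA. Both lines are Flp-In T-REx 293, a derivative of HEK293 human embryonic kidney cells with a site for targeted integration. Doxycycline at 1 µg/ml for 6 days induced miRNAs against endogenous PGC-1α in both lines, together with a resistant copy that was full length (WT-res) or lacked the RS domain (ΔRS-res). Each line was grown from selected colonies, so a difference between the lines and a difference between the clones cannot be told apart. RNA of whole cells and of their cytoplasm came from 3 consecutive passages per line, which gave 12 libraries in 4 groups of 3, and p-values measure the spread between such passages only.

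Neighbouring genes on a chromosome arm need share no function. Distal 7q carries EZH2, the methyltransferase of Polycomb repressive complex 2, KMT2C, a histone methyltransferase of enhancers, a dense cluster of zinc finger genes, the genes of the human Y RNAs, and RHEB, the GTPase that activates mTORC1. HEK293 lines are known for altered chromosome numbers. DNA copy number was not measured here, and its part in the values below was not tested.

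Library totals lay between 90.3 and 144.6 M counts. The HEK293 markers VIM, KRT8, KRT18 and NEFL were detected in every library. NEFM, from the same list, was low with 25 to 72 counts. The blood markers PTPRC and CD3E had at most 4 counts in any library, the kidney tubule marker UMOD had 0 and the liver marker ALB had 5 to 16. PPARGC1A, the gene of PGC-1α, held 652, 538 and 624 CPM (counts scaled to a common library size) in WT-res cytoplasm and 291, 287 and 385 in ΔRS-res cytoplasm. In whole-cell RNA it held 672, 689 and 498 CPM in WT-res and 352, 364 and 498 in ΔRS-res. Both lines express an introduced copy, so these counts mix it with the endogenous gene. Replicate 3 of the WT-res whole-cell libraries went against its label. For DDX19B, chosen after its values were seen, the other WT-res whole-cell libraries held 12.6 and 13.2 CPM, the library labelled replicate 3 held 0.199, and the ΔRS-res libraries held 0.263, 0.257 and 0.229. It was kept under its label, and fits with all 6 whole-cell libraries and with the other 5 were made. With all 6, edgeR called 0 members in each of the role lists below, so the whole-cell calls given for these lists rest on leaving it out.

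In cytoplasmic RNA, 79 of the 89 members had a lower level in ΔRS-res than in WT-res. The median log2 fold change was -0.46, a level of 0.73 times that of WT-res, with quartiles of -0.59 and -0.27. The median was 0.04 over the 646 other chromosome 7 genes of the same minimum count and 0.01 over all 14559 such genes. In 53 members all ΔRS-res libraries lay below all WT-res libraries, which 9.41% of all genes of that minimum count did, a count that the choice of the stretch fixed in part. With the 4 cytoplasmic libraries that the study kept, the median was -0.43 and 76 members were lower. In bulk RNA, fewer cells that express a gene and less RNA per cell cannot be told apart.

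Along the chromosome, the cytoplasmic medians use the values that chose the stretch and are given as a description. In 15 windows along the rest of chromosome 7, most of them 10 Mb wide, the cytoplasmic median lay between -0.09 and 0.1. Inside the stretch it was -0.32 in the 18 members up to 146.1 Mb, -0.46 in the next 29 up to 150.5 Mb, -0.46 in 23 up to 155.0 Mb and -0.5 in the last 19. Whole-cell medians of these windows, in the same order, were -0.07, -0.41, -0.48 and -0.35 with 5 libraries, beside -0.13 to 0.1 outside the stretch. With all 6 libraries they were -0.09, -0.19, -0.34 and -0.34, beside -0.22 to 0.11. The whole-cell median of the first window thus lay inside the range of the rest of the chromosome in both fits, and with all 6 so did that of the second. The genes next to the stretch on its centromeric side were near 0, with cytoplasmic log2 fold changes of 0.09 for AGK, -0.06 for DENND11 and -0.11 for the noncoding gene ENSG00000270157.

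**Figure D1:**
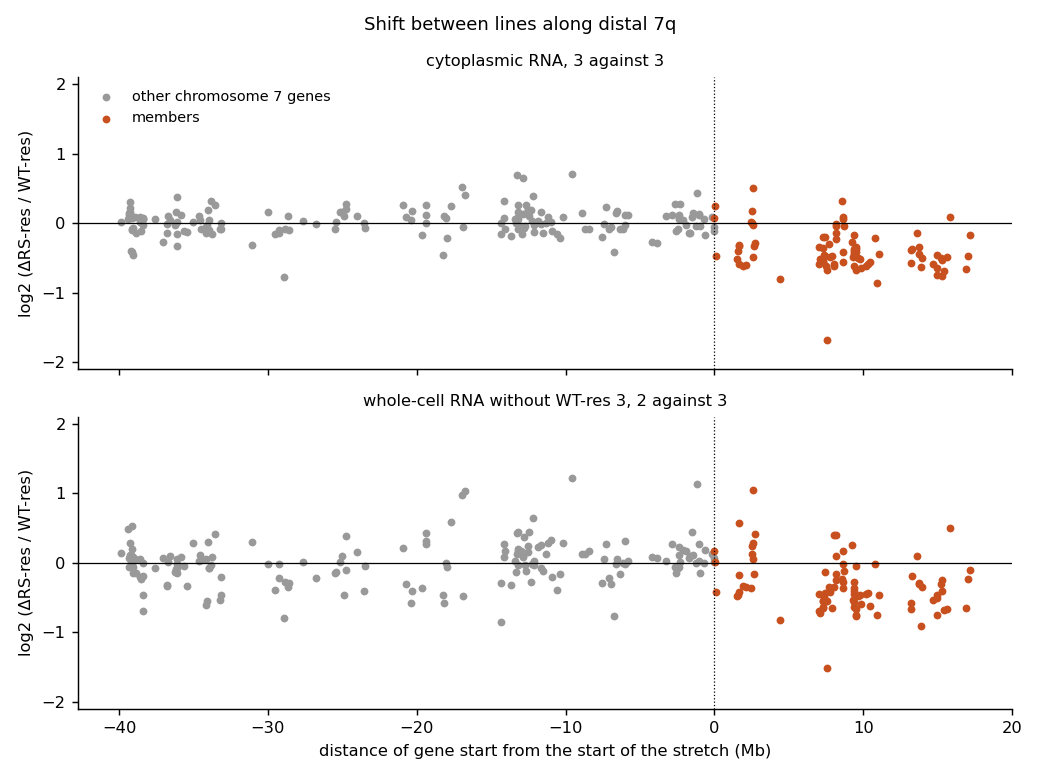
Log2 fold change of ΔRS-res over WT-res for chromosome 7 genes (points) against the distance of their start from the start of the stretch in Mb, in cytoplasmic RNA (top) and in 5 whole-cell libraries, with the one labelled WT-res replicate 3 removed (bottom). Members (orange) have medians of -0.46 and -0.41, against 0.04 and 0.02 for the rest of chromosome 7.

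The level of the members in each library is a further description of the same values. In the cytoplasm it restates the difference that chose the stretch. The ΔRS-res medians lie near 0 because the ΔRS-res mean is the reference. Relative to the mean of the ΔRS-res libraries of the same fraction, the median member stood at 0.49, 0.47 and 0.43 on the log2 scale in the WT-res cytoplasmic libraries and at 0.01, -0.02 and 0.01 in those of ΔRS-res. In whole-cell RNA it stood at 0.4 and 0.41 in WT-res replicates 1 and 2, and at -0.07 in the library labelled replicate 3, among the ΔRS-res values of -0.02, -0.01 and 0.03. Members held between 0.318% and 0.328% of all counts in WT-res cytoplasm and between 0.234% and 0.237% in ΔRS-res cytoplasm.

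Whole-cell libraries did not enter the choice of the stretch, and the members were tested in them. They came from the same cell pellets as the cytoplasmic libraries, and whole-cell RNA holds the cytoplasmic RNA. The test is therefore not independent of that choice. With all 6 of them as labelled, 75 of 89 members were lower in ΔRS-res and the median log2 fold change was -0.25, against 0.02 over all genes of the same minimum count. None of the members passed an adjusted p of 0.05 in the quasi-likelihood test of edgeR (adjusted by Benjamini-Hochberg), and neither did any of the 26793 genes tested, 0.0% of them lower. At an unadjusted p under 0.05, 19 members were lower and 0 higher, beside 8.54% of all genes and 11.7% of genes of the members' minimum count that were lower. DESeq2 called 5 members lower, or 5.62%, beside 2.95% of all genes and 5.19% of genes of that count. EdgeR with a replicate block called 6, or 6.74%, beside 5.19% of all genes and 8.82% of genes of that count. With all 6 libraries the members' share was therefore near that of genes of like count by DESeq2 and below it with the block. The 6 were KMT2C, EZH2, XRCC2, RNY1, RNY3 and PAXIP1-AS2.

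Without the library labelled WT-res replicate 3, 73 of 89 members were lower in whole-cell RNA and the median was -0.41, close to that of the cytoplasm. In that library the median member itself stood at -0.07 relative to the ΔRS-res mean, beside 0.4 and 0.41 in WT-res replicates 1 and 2. Calls over members made without it are therefore in part circular. The same edgeR test then called 28 members lower and 0 higher, beside 1.18% of 26762 genes called lower and 0.886% called higher. Over genes of the members' minimum count, these shares were 1.84% and 1.35%, against 31.5% and 0.0% of the members. At an unadjusted p under 0.05 these numbers were 55 lower and 1 higher, OR2A9P, which DESeq2 and the replicate block called higher with the same 5 libraries. Among the 14557 genes of the members' minimum count, 2086 were lower and 1986 higher at that p. In 61 members all ΔRS-res libraries lay below WT-res replicates 1 and 2, which 24.7% of all genes of the minimum count did. In 51 of these 61 the left-out library lay at or below the highest ΔRS-res library, and in 2 it lay at or above the lower of the remaining WT-res libraries. With 5 libraries, DESeq2 called 44 members lower, or 49.4%, beside 4.64% of all genes and 8.01% of those of the minimum count. The replicate block called 58, or 65.2%, beside 9.2% and 15.5%. With a block and 5 libraries, here and below, replicate 3 held ΔRS-res only. The difference between lines then came from replicates 1 and 2 alone. The study's criterion was an unadjusted p under 0.05 and a log2 fold change past 0.5. The study applied it to transcripts, and here it was applied to gene sums. By it, 6 members were lower with all libraries, beside 5.16% of all genes and 5.6% of those of the minimum count. Without the library in doubt, 27 were lower, beside 5.96% and 5.95%.

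The direction was shared by the 2 fractions in most members. Of the 89, 70 were lower in both fractions and 7 higher in both, 9 were lower in the cytoplasm only and 3 in whole-cell RNA only, when the doubtful library was left out. Cytoplasmic minus whole-cell log2 fold change had a median of -0.05 with quartiles of -0.17 and 0.06. With all 6 whole-cell libraries, 71 were lower in both fractions, 6 higher in both, 8 lower in the cytoplasm only and 4 in whole-cell RNA only. The median of the difference was then -0.19, with quartiles of -0.27 and -0.08, so most whole-cell values were less negative. Across the 89 members the 2 fold changes had a Pearson correlation of 0.724 and a Spearman correlation of 0.674 (0.764 and 0.693 with all 6 libraries), a description over genes that share libraries and cell pellets.

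**Figure D2:**
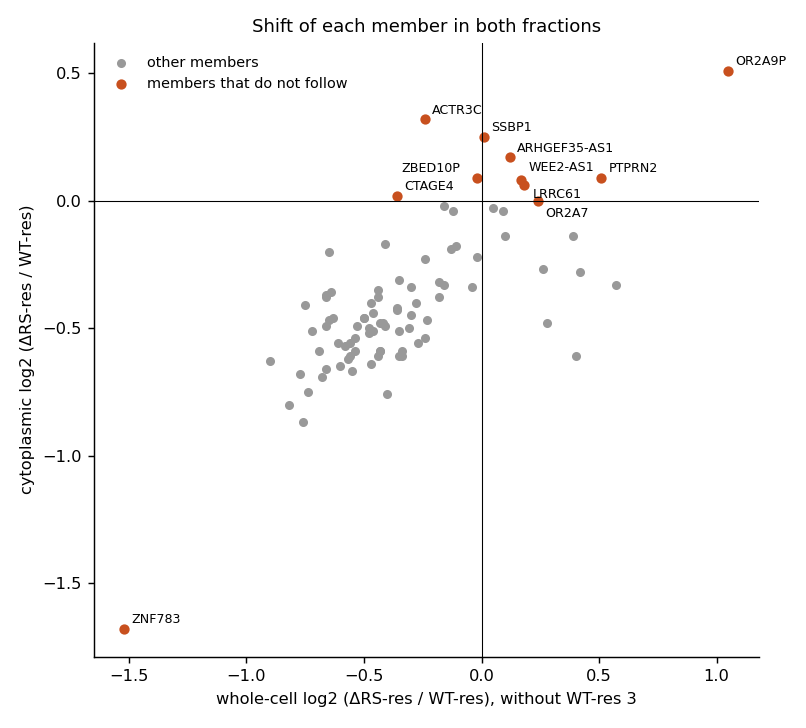
Log2 fold change of ΔRS-res over WT-res of each member in 5 whole-cell libraries, replicate 3 of WT-res being left out (horizontal) and in the cytoplasm (vertical). Most members lie in the lower left, ZNF783 lies apart at -1.52 and -1.68, and the other 10 members marked in orange have cytoplasmic values above 0.

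In the cytoplasm, which chose the stretch, 79 of all 89 members were lower. Counts of lower members in this list and in those below therefore in part restate that choice. All 5 listed chromatin genes had negative values in both fractions. Of them, 4 were called lower in whole-cell RNA without the library in doubt. That share was 31.5% over all members and 1.84% over genes of the minimum count. KMT2C (ENSG00000055609, 152134922 to 152436644, minus strand) held 236, 239 and 234 CPM in WT-res cytoplasm and 165, 160 and 157 in ΔRS-res cytoplasm. The groups did not overlap, and the ratio was 0.68. In whole-cell RNA it held 231, 247 and 175 CPM in WT-res and 147, 163 and 158 in ΔRS-res, a log2 fold change of -0.48 ± 0.128 (SE, n = 3 per line, edgeR adjusted p = 0.217; 0.0461 with a replicate block) with all libraries and -0.61 ± 0.0719 (adjusted p = 0.00923) with replicate 3 of WT-res left out. EZH2 held 102, 114 and 109 CPM in WT-res cytoplasm and 77.8, 79.5 and 70.7 in ΔRS-res. Its whole-cell log2 fold change was -0.55 (edgeR adjusted p = 0.231; 0.0427 with a replicate block) with all libraries and -0.72 (adjusted p = 0.00324) without the doubtful one. NCAPG2, a subunit of condensin II that lies near the telomeric end, moved from 143, 151 and 156 CPM in WT-res cytoplasm to 92.1, 97.9 and 95.3 in ΔRS-res. SMARCD3, a subunit of SWI/SNF remodelling complexes, was the list member not called, at -0.04 in whole-cell RNA of 5 libraries and -0.14 with all 6.

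The zinc finger genes, most of which encode DNA-binding proteins with a KRAB domain, had cytoplasmic values below 0 in 14 of 14 members, with a median of -0.49. In whole-cell RNA of all 6 libraries 11 were lower and 3 higher, with a median of -0.19. With 5 libraries 12 were lower and 2 higher, with a median of -0.39 and a highest value of 0.4. Without the doubtful library, 6 of the 14 were called lower in whole-cell RNA, beside 28 of all 89 members and 1.84% of genes of the minimum count. ZNF282 held 73.4, 71.7 and 62.0 CPM in WT-res cytoplasm and 45.7, 41.8 and 48.1 in ΔRS-res. REPIN1, which encodes a zinc finger protein first described at replication origins, and ZNF398 had cytoplasmic log2 fold changes of -0.42 and -0.48. ZNF783 (ENSG00000204946, 149262171 to 149297302, plus strand) had the most negative value of all members. It held 19.5, 17.6 and 17.5 CPM in WT-res cytoplasm and 5.48, 5.18 and 6.39 in ΔRS-res, a ratio of 0.31. In whole-cell RNA it held 21.9 and 20.6 CPM in WT-res replicates 1 and 2, 7.2 in the library labelled replicate 3, and 7.09, 6.82 and 8.33 in ΔRS-res. Its whole-cell log2 fold change was -1.16 (edgeR adjusted p = 0.267) with all libraries and -1.52 (adjusted p = 0.00153) without the third WT-res library.

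Genes of ubiquitin transfer and protein folding were lower in 7 of 7 members, beside 79 of all 89 in the cytoplasm. In all 7 the groups did not overlap in the cytoplasm, the fraction that chose the stretch. This held in 53 of all 89 members and in 9.41% of all genes of the minimum count. UBE3C, a HECT-type ubiquitin ligase (ENSG00000009335, 157138926 to 157269370, plus strand), held 221, 242 and 232 CPM in WT-res cytoplasm and 143, 144 and 142 in ΔRS-res. In whole-cell RNA it held 220, 215 and 119 CPM in WT-res and 138, 137 and 132 in ΔRS-res, so that the library in doubt lay below every ΔRS-res library. CUL1, the scaffold of SCF ubiquitin ligases, held 143, 169 and 155 CPM in WT-res cytoplasm against 105, 111 and 94.9. DNAJB6, a cochaperone of HSP70, had log2 fold changes of -0.49 in the cytoplasm and -0.66 in whole-cell RNA of 5 libraries (edgeR adjusted p = 0.00923). With all 6 libraries the latter was -0.43 (edgeR adjusted p = 0.461).

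**Figure D3:**
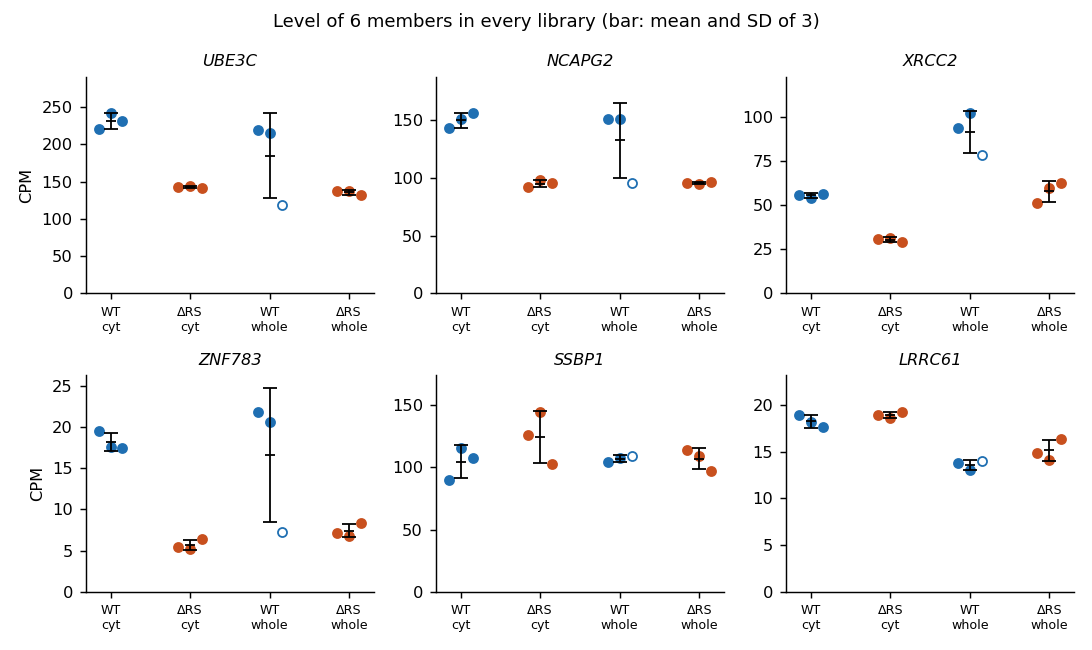
CPM of 6 members in each library (points; WT-res blue, ΔRS-res orange) with the mean and SD of 3 libraries; the open circle is replicate 3 of WT-res whole-cell RNA. UBE3C, NCAPG2, XRCC2 and ZNF783 are lower in ΔRS-res cytoplasm without overlap, while SSBP1 overlaps and LRRC61 holds 17.6 to 18.9 CPM in WT-res and 18.6 to 19.3 in ΔRS-res cytoplasm.

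Both members listed for DNA repair and cell death were lower. XRCC2, a gene of homologous recombination (ENSG00000196584, 152644776 to 152676193, minus strand), held 55.9, 54.1 and 56.5 CPM in WT-res cytoplasm and 31.0, 31.3 and 29.0 in ΔRS-res. In whole-cell RNA it held 93.4, 102 and 78.5 CPM in WT-res and 51.3, 59.5 and 62.7 in ΔRS-res, and here the third WT-res library stayed above all ΔRS-res libraries. The log2 fold change was -0.66 (edgeR adjusted p = 0.213) with all libraries, -0.66 with a replicate block (adjusted p = 0.0291) and -0.76 without the doubtful library (adjusted p = 0.0122). CASP2, an initiator caspase, held 79.5, 95.6 and 81.2 CPM in WT-res cytoplasm and 65.0, 63.8 and 65.0 in ΔRS-res.

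In signalling and the cytoskeleton, 8 of 9 members were lower in the cytoplasm, beside 79 of all 89. RHEB held 109, 110 and 123 CPM in WT-res and 75.5, 82.6 and 82.1 in ΔRS-res cytoplasm, and its whole-cell log2 fold change was -0.31 with all libraries (edgeR adjusted p = 0.386) and -0.46 without the doubtful one (adjusted p = 0.0157). TCAF1, a regulator of TRP channels, held 197, 155 and 204 CPM in WT-res and 106, 106 and 153 in ΔRS-res cytoplasm. Those groups came close, since the third ΔRS-res library lay just under the second WT-res library. AGAP3, which encodes a GTPase-activating protein, had a cytoplasmic log2 fold change of -0.43.

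Among the mitochondrial and metabolic genes, 5 of 6 members were lower in the cytoplasm, beside 79 of all 89. In whole-cell RNA of 5 libraries 4 of the 6 were lower and 2 higher. These 4 were called, beside 28 of all 89 members and 1.84% of genes of the minimum count. With all 6 libraries each of the 6 was lower and edgeR called 0. GSTK1, a glutathione transferase, held 30.9, 29.7 and 31.9 CPM in WT-res and 20.7, 21.9 and 21.8 in ΔRS-res cytoplasm. FASTK, whose product acts on mitochondrial RNA, stood at -0.46 in whole-cell RNA with all libraries (edgeR adjusted p = 0.317) and at -0.63 without the doubtful one (adjusted p = 0.0104). Of the genes for RNA and ribosomes, 5 of 5 members had cytoplasmic values below 0, with a median of -0.37. This turned with the 4 cytoplasmic libraries that the study kept, where 2 were below 0 and 3 above it, RNY1 at 0.32, RNY3 at 0.19 and ABCF2 at 0.05, and the median was 0.05. In whole-cell RNA of 5 libraries, edgeR called 0 of them without a replicate block and 5 lower with one, while 4 had an unadjusted p under 0.05 and DESeq2 called 3. Of all 89 members, 28, 58, 55 and 44 were lower by these criteria, in that order. With all 6 libraries the block called 2, RNY1 and RNY3. RBM33, an RNA-binding protein, held 128, 114 and 123 CPM in WT-res and 83.1, 82.2 and 91.3 in ΔRS-res cytoplasm. NOM1, a nucleolar protein, had a value of -0.5, and ABCF2, an ABC protein without a membrane domain, of -0.37. ABCF2 shares sequence with the readthrough gene ABCF2-H2BK1, so their counts are uncertain.

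Of the membrane and secretory genes, 7 of 7 members had cytoplasmic values below 0, beside 79 of all 89. In whole-cell RNA of 5 libraries 3 of the 7 were called lower, beside 28 of all 89 members and 1.84% of genes of the minimum count. LMBR1, whose intron holds the limb enhancer of SHH, held 51.2, 57.1 and 53.9 CPM in WT-res and 40.0, 40.8 and 37.3 in ΔRS-res cytoplasm. ESYT2, which tethers the endoplasmic reticulum to the plasma membrane, had a cytoplasmic value of -0.47. Among developmental and neural genes, 4 of 8 listed genes reached the minimum count. CNTNAP2, a neurexin-like adhesion protein, held 45.3, 45.5 and 49.8 CPM in WT-res and 25.1, 28.0 and 27.6 in ΔRS-res cytoplasm. EN2 and MNX1, both homeobox genes, had cytoplasmic values of -0.45 and -0.54.

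The 11 members that did not follow were 10 with a cytoplasmic value above 0, and ZNF783. SSBP1, the single-stranded DNA-binding protein of mitochondria (ENSG00000106028, 141738334 to 141787922, plus strand), held 89.8, 116 and 108 CPM in WT-res and 126, 145 and 103 in ΔRS-res cytoplasm. The groups overlapped, and whole-cell levels were 104, 108 and 109 CPM against 114, 109 and 97.5. SSBP1 and WEE2-AS1, at 0.08, are the first members from the centromeric side, and the next one, the taste receptor gene TAS2R4, stood at -0.48. A second group lay at 144.18 to 144.3 Mb, where CTAGE4, ARHGEF35-AS1, OR2A7 and OR2A9P had values of 0.02, 0.17, 0.0 and 0.51. OR2A9P was the member with the highest value and also the only one higher in ΔRS-res cytoplasm without overlap, at 1.4, 1.19 and 1.69 CPM against 1.11, 0.764 and 1.12. These genes belong to families with near-identical copies, so the division of reads between them is uncertain.

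A further group of members near 0 started between 149.84 and 150.32 Mb, limits chosen after the values were seen. Its 7 members had a cytoplasmic median of -0.02, against -0.49 in the 21 members before it and -0.49 in the 45 after it. LRRC61 held 18.9, 18.2 and 17.6 CPM in WT-res and 18.9, 18.6 and 19.3 in ΔRS-res cytoplasm. ATP6V0E2, a subunit of the vacuolar proton pump, held 34.0, 42.2 and 33.0 CPM against 38.5, 36.5 and 32.7. ACTR3C and ZBED10P had values of 0.32 and 0.09. Near the telomere PTPRN2, a phosphatase-like protein of secretory granules, stood at 0.09 with 1.4, 1.07 and 1.56 CPM against 1.1, 1.51 and 1.69, and the last member, DYNC2I1, stood at -0.18.

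The SD of the cytoplasmic log2 fold changes was 0.275 over members with a mean cytoplasmic count of 1000 or more and 0.308 over the others. Among the 53 members of the higher counts, 50 were below 0 and 43 lay within 0.25 of the members' median, against 29 and 21 of the 36 others. The members just above the minimum count, GHET1, ACTR3C and OR2A1-AS1, had cytoplasmic values of -0.54, 0.32 and -0.48. The genes just below it, ENSG00000283128, TCAF2 and GBX1, had values of -0.93, -0.52 and -0.82. INSIG1, left out by the rule, stood at -0.35.

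Transcript shares within the members were mostly alike in the lines. RHEB-201 held between 66.6% and 69.9% of RHEB counts in all 12 libraries. Of 70 members with a second transcript of at least 10 counts, the share of the leading transcript differed without overlap between the lines in the cytoplasm in 8, or 11.4%, beside 9.62% of all such genes. ZNF783-202 was one of them, at 95.7% ± 0.557 (SD, n = 3) for WT-res and 93.5% ± 0.854 (SD, n = 3) for ΔRS-res.

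The difference between fractions was fitted over all 12 libraries with line and fraction as terms. The minimum count acts on the cytoplasmic level, which is one side of this difference, so its values and calls over members are a description. By edgeR's adjusted p, 16 members, or 18.0%, were higher in cytoplasmic than in whole-cell RNA, beside 23.9% of 26686 genes and 40.5% of genes of the same minimum count. Lower were 21 members, or 23.6%, beside 31.6% and 26.1%. PDIA4, a protein disulfide isomerase of the endoplasmic reticulum, held 215, 216 and 108 CPM in WT-res whole-cell RNA and 24.3, 29.6 and 22 in WT-res cytoplasm, a log2 difference of -2.87 ± 0.17 (SE). CHPF2, an enzyme of chondroitin synthesis, stood at -2.17, TAS2R4 at -1.69 and ESYT2 at -1.63. Of the 7 membrane and secretory members, 6 were called lower in cytoplasmic RNA. ZYX, the focal adhesion protein zyxin, was higher by 0.54, and RHEB, NUB1 and CUL1 by 0.46, 0.42 and 0.42. DESeq2 and edgeR with a block for the cell pellet each called 29 members higher, or 32.6%, beside 29.0% and 27.3% of all genes and 49.2% and 46.3% of genes of the same minimum count.

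**Figure D4:**
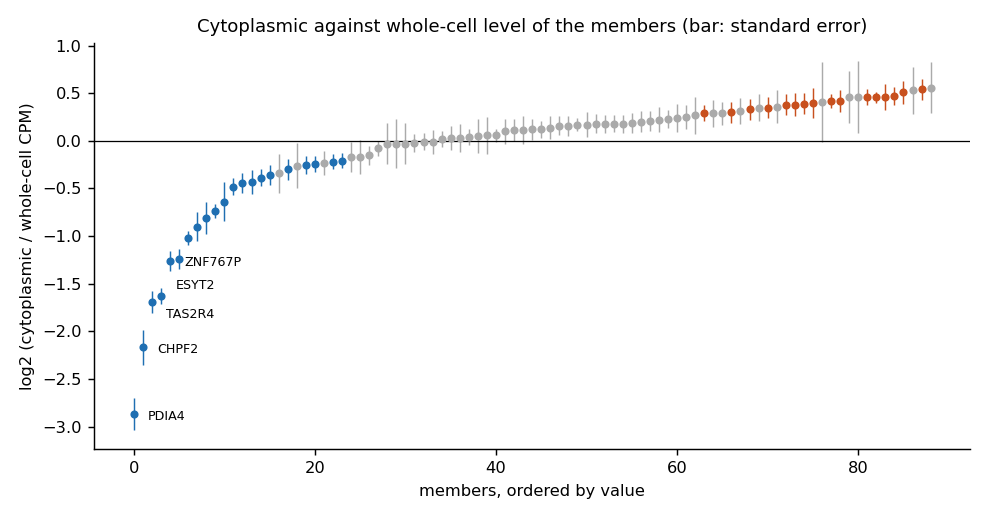
Log2 ratio of cytoplasmic to whole-cell CPM of the 89 members over 12 libraries, ordered by value, with standard errors; blue and orange mark members lower and higher in the cytoplasm at an edgeR adjusted p under 0.05. The lower end is held by PDIA4 at -2.87 and CHPF2 at -2.17, and the higher values stay below 0.6.

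Genes elsewhere in the genome whose products work with those of members were compared in the same fits. Of 49 such genes, 19 had a cytoplasmic value below 0, and the median was 0.04. In whole-cell RNA of 5 libraries, edgeR without a block called 0 lower, beside 268 of 14557 genes of the members' minimum count. At an unadjusted p under 0.05, 10 were lower, beside 2086 of those genes. SKP2 was called higher by edgeR at 0.42 (adjusted p = 0.0323), against 0.23 (adjusted p = 0.598) with all 6 libraries. DESeq2 called 9 lower and 3 higher with 5 libraries, beside 1166 (8.01%) and 1131 of the 14557 genes of that count. The replicate block called 11 lower and 8 higher with 5 libraries, beside 2257 (15.5%) and 1855 of those genes. With all 6 it called 8 lower and 3 higher, beside 1284 (8.82%) and 726 of 14558. For PRC2, EED and SUZ12 had cytoplasmic values of -0.10 and 0.04 beside -0.51 for EZH2. In whole-cell RNA of 5 libraries they stood at -0.30 and -0.65 beside -0.72 (edgeR adjusted p of 0.101 and 0.112 without a block, 0.0157 and 0.0113 with one), and with all 6 at -0.23 and -0.72 beside -0.55. SMC2 and SMC4, the ATPases of condensin, and RO60 and SSB, which bind Y RNAs, had cytoplasmic values of 0.04, -0.11, -0.09 and 0.11. Their values in 5 whole-cell libraries were -0.74, -0.82, -0.84 and -0.65, and with all 6 they were -0.98, -1.08, -0.97 and -0.71. With 5 libraries edgeR called none of them without a block (adjusted p of 0.125, 0.11, 0.0878 and 0.103) and all of them with one. These partners were near 0 in the cytoplasm alone. In each of them the library in doubt lay within or above the range of WT-res replicates 1 and 2. For mTORC1, TSC1, TSC2 and MTOR had cytoplasmic values of -0.10, 0.04 and 0.06 beside -0.51 for RHEB, and -0.03, 0.05 and 0.06 in whole-cell RNA of 5 libraries beside -0.46.

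Promoter windows from RefSeq (GRCh38.p14), 250 bases before to 50 after a gene's start, were found for 72 members, with 115 windows. The binding motif of the ERR family, TCAAGGTCA, occurred on either strand in 0 of them and in 0.353% of all 35116 windows. The core of the NRF1 motif, GCGCATGCG, occurred in 2, or 1.74%, and in 1.92% of all windows. Both matches are shown because PGC-1α is known to coactivate NRF1. They read as follows on the gene's strand, with the match in capitals, at chr7:157336927-157336955 and chr7:155003417-155003445, both on the plus strand.
DNAJB6: agtggaaactGCGCATGCGcggcgtcagg
PAXIP1-DT: ctcgggggcgGCGCATGCGcgcggcggag
A match is a description of these letters only. Member windows had a median GC content of 67.0%, against 58.7% for all windows.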

How the data were processed

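The authors trimmed reads with Trim Galore, aligned them to GRCh38 with STAR and quantified transcripts with RSEM; the deposited values are expected counts of transcripts, without normalization. Tool versions are not given in the labels. The expected counts were summed per gene, rounded, and placed with GENCODE 44, which matched 99.83% of genes. Genes with a mean count above 2 were tested with edgeR 4.0.16 (R 4.3.3; TMM, quasi-likelihood test, Benjamini-Hochberg adjustment over all genes); alternatives were DESeq2 1.42.0, its size factors, other filters, a replicate block, the leading transcript, the study's threshold and each replicate left out. CPM use TMM library sizes within a fraction. The test was tried on simulated data. The members, lists and rule were chosen with earlier results of these data known, and so was the doubt about 1 library. Named were the 3 most abundant members of each role list, members that did not follow (a cytoplasmic value on the other side of 0 from the members' median, or over 0.5 from it), those at the ends of the stretch, and genes at the minimum count. Same-numbered whole-cell libraries of the lines deviated together (correlations 0.584, 0.602 and 0.698 over 14328 genes). Cytoplasmic ones did so for numbers 2 and 3 but not for number 1 (-0.451, 0.628 and 0.472). Deviations were taken from the mean of 3 libraries, of which 1 can stand apart in both lines. These values therefore cannot settle whether the numbers pair the libraries. Libraries of the same group were not copies of each other. Pairs from different groups, among them the doubtful library and those of ΔRS-res, were not compared. Combinations that leave out the doubtful library and change a second choice were added after seeing the data. A listed cell type marker is not reported here.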

Additional observations from a re-analysis of the deposited data

How the results depend on the processing

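Cytoplasmic medians (-0.475 to -0.438 with a replicate left out, -0.462 to -0.433 otherwise) and counts of lower members (76 to 81) changed little. The whole-cell median ran from -0.41 to -0.172 when a library was left out. The number of members called lower in whole-cell RNA ran from 0 to 28 there, and the 28 came from leaving out the library labelled WT-res replicate 3; leaving out any other gave 0. It was 6 with the replicate block, 5 with DESeq2, 6 by the study's threshold, and, without the doubtful library, 58 with the replicate block, 44 with DESeq2 and 27 by the study's threshold. Each of these last fits called 1 member higher. Members called higher in the cytoplasm numbered 29 with DESeq2 and 29 with the pellet block, against 16.

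Whole-cell log2 fold changes near 0 changed sign. SSBP1 gave 0.012 with DESeq2's size factors, 0.042 for the leading transcript, 0.012 with DESeq2, 0.008 without a filter, and, without the doubtful library, 0.073 with the replicate block and 0.016 with DESeq2; leaving out libraries gave -0.052 to 0.06. EN2 gave 0.017 with the block. For the leading transcript, WEE2-AS1 gave 0.498, ACTR3C 0.314, PTPRN2 -0.681 and OR2A1-AS1 0.55. DESeq2 without the doubtful library gave 0.169 for WEE2-AS1, -0.014 for ZBED10P and 0.288 for OR2A1-AS1. Leaving out libraries gave -0.161 to 0.055 for ATP6V0E2, -0.295 to 0.153 for EN2, -0.363 to 0.166 for WEE2-AS1, -0.047 to 0.121 for ARHGEF35-AS1, -0.264 to 0.006 for ACTR3C, -0.019 to 0.151 for ZBED10P, -0.006 to 0.507 for PTPRN2 and -0.327 to 0.285 for OR2A1-AS1. The cause was not tested. Members under 1000 counts, and those with near-identical copies, are the least certain.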
